A study of Mus musculus with 16 samples.

Results

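Complexes III, IV and V of the mitochondrial respiratory chain were followed through the genes that the nucleus encodes for them, in the liver of mice given cadmium (Cd), selenium (Se) or both. A gene was included when the deposited table called it protein-coding, placed it in the KEGG oxidative phosphorylation pathway and gave it a name starting Uqcr, Cox or Atp5. The rule found 45 genes among 57010 listed, and 132 rows carried the pathway annotation. They were 8 genes of complex III, 22 of complex IV and 15 of complex V. The gene set was chosen by earlier results on these same libraries, in which oxidative phosphorylation genes stood out between the Cd+Se and the Cd mice. For this reason the values of that comparison, its counts included, are a description from which nothing is read. Of the 45 genes, 39 averaged 1 TPM or more across the 16 mice and entered the model. TPM is a transcript level per unit of transcript length, expressed as a share of a library total that is equal for all libraries. The other 6 were Cox4i2, Cox6a2, Cox7b2, Cox8b, Cox8c and Cox5b-ps, a copy of Cox5b.

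The animals were wild-type male C57BL/6J mice, with 4 mice in each of 4 groups. The study's methods give an age of 8 to 12 weeks. A figure legend of the study puts 8 weeks at the start of the 3-month diet. The age at tissue collection is not stated. Control mice (numbers 27, 28, 29 and 30) received neither agent. Cd mice (1, 2, 5 and 6) received CdCl2 by intraperitoneal injection each day at 1.25 mg/kg during the last 7 days. Se mice (39, 40, 41 and 44) ate grain with selenomethionine (SeMet) at 2 ppm for 3 months. Cd+Se mice (13, 14, 15 and 16) received the diet and the injections. Each library came from poly(A)-selected RNA of whole liver, and its title joins a pair of replicate names, which the table holds as 1 column. Because the values are TPM, how deeply each library was sequenced is unknown, and precision rests on the 4 mice. In bulk tissue, fewer cells of a type and less RNA per cell cannot be told apart.

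The respiratory chain passes electrons from NADH and succinate to oxygen and stores the energy as a proton gradient across the inner mitochondrial membrane. Complex III (ubiquinol-cytochrome c reductase) hands electrons from ubiquinol to cytochrome c, complex IV (cytochrome c oxidase) hands them on to oxygen, and complex V (ATP synthase) lets protons flow back and makes ATP. Each is built from nuclear subunits together with a few that mitochondrial DNA encodes, and dedicated assembly factors insert the haem and copper groups of complex IV. In hepatocytes, which are rich in mitochondria, this machinery supplies ATP for urea, glucose and bile acid synthesis. Genes of nuclear subunits are known targets of the transcription factors NRF1, GABP (an ETS factor), YY1 and Sp1. Cd induces metallothionein genes through metal response elements (MRE).

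Promoter windows of RefSeq (GRCm38.p6) were matched to 35 of the 45 genes, each running from 250 bases before to 50 bases after a transcription start. The genes left without a window were Cox4i2, Cox6c, Uqcrb, Atp5a1, Cox6a2, Uqcrc2, Cox4i1, Cox8c, Uqcrq and Cox5b-ps. Below are the bases of the window that precede the start and lie outside the gene model of GENCODE M21, for the genes with a window that rose most (Atp5e, Cox5b) and fell most (Cox10, Cox11) in Cd against control, and for Cox6a1, which held NRF1 matches. They are shown 5′ to 3′ on the gene's strand so that genes moving in opposite directions can be compared. Capitals mark matches, on either strand, of the ETS core CCGGAAG, the NRF1 half-site GCATGCGC, the YY1 core AAGATGGCG and the Sp1 core GGGCGG.
Atp5e, chr2:174464106-174464351 (minus strand): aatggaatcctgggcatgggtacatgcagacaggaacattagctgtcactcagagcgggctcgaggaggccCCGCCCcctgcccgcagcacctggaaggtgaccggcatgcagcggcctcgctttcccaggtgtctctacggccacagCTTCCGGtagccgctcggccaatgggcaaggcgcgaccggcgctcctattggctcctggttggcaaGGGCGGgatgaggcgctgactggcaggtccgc
Cox5b, chr1:36691237-36691448 (plus strand): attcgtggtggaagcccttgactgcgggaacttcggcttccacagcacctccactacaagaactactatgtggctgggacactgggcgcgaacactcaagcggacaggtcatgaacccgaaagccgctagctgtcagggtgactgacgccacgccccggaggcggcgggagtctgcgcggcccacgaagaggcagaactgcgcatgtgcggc
Cox6a1, chr5:115348982-115349208 (minus strand): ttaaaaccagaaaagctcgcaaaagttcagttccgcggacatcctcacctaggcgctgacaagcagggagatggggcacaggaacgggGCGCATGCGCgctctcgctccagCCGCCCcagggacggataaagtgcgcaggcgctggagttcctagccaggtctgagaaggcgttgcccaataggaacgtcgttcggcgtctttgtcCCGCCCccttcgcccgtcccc
Cox10, chr11:64079473-64079722 (minus strand): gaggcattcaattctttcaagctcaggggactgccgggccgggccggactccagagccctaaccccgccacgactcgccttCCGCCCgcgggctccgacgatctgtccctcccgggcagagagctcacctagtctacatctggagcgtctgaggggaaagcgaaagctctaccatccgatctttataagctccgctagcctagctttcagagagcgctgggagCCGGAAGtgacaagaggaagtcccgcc
Cox11, chr11:90637934-90638172 (plus strand): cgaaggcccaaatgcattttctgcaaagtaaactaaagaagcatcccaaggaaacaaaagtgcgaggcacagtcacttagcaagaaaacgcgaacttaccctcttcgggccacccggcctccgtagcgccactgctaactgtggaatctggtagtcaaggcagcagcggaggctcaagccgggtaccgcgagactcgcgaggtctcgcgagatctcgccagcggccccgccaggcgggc

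Atp5e, which rose, and Cox10, which fell, each held 1 ETS match and at least 1 Sp1 match in the stretch shown. Cox5b and Cox11, which also moved in opposite directions, held none of the 4 motifs there. The Cox6a1 stretch held 2 Sp1 matches and 2 NRF1 matches, one on each strand, that overlap. Over the whole 300-base windows, the ETS core was present in 12 of 35 genes (34.3%), against 9.93% of all 27025 genes with a window. The NRF1 half-site was present in 17.1% against 3.05%, and the YY1 core in 8.57% against 1.64%. The Sp1 core was present in 37.1% against 38.2%. The MRE core, searched as TGCNCNC, was present in 57.1% against 53.6%, and a run of letters can count for both it and the NRF1 half-site. Among genes with a window, the ETS core was found in 3 of 7 that rose in Cd mice and in 2 of 4 that fell. The 27025 genes were not limited to the 11766 tested, so the shares were not compared with those of other genes expressed in liver. A match of letters is a description and not a binding site.

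In control liver the 45 genes spanned a wide range of levels. The leading 33, from Cox6c at 719 TPM to Cox7a2l at 113 TPM, were structural subunits and the supercomplex factor Cox7a2l. Cox7c (672 TPM), Atp5g3 (651 TPM) and Atp5b (646 TPM) followed Cox6c, and the ranges of these 4 over the control mice overlapped. The assembly factors Cox11, Cox15 and Cox10, with Cox7a1 and Atp5g2, lay between 2.23 and 11.9 TPM. Cox6b2 was at 0.74 TPM, and the 6 genes under the filter were below 0.1 TPM in control mice on average. Within complex III the core subunits Uqcrc1 (119.7 TPM) and Uqcrc2 (136 TPM) had the lowest levels of the 8 genes, while the accessory subunit Uqcrh had the highest (536 TPM).

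Cd against control asked how the injections changed these genes on the normal diet. The subunit genes that rose in Cd liver had short coding sequences, among them Uqcrq of complex III, Cox5b and Cox6a1 of complex IV and Atp5e of complex V, while other short ones, such as Uqcr11 and Cox8a, did not pass the test. After correction for transcript length and GC content Uqcrq still passed and the other 8 genes that had risen did not. The core genes Uqcrc1, Uqcrc2 and Atp5a1 and the assembly factors Cox10, Cox11 and Cox15 fell, and of these Cox15 did not pass after the correction. Of the 39 genes tested, 9 rose (23.1%), against 5.82% of all 11766 genes tested, and 6 fell (15.4%), against 24.9% of all genes (limma, adjusted p under 0.05). Groups did not overlap for 3 genes that were higher, against 6.44% of all genes, and for 5 that were lower, against 27.8%. The median log2 fold change was 0.048 over the 39 genes and -0.17 over all genes tested. Its sign depended on the scaling, with 0.27 after centring on the library median and -0.15 after correction for transcript length and GC content. The Cd libraries of this comparison are the same 4 that entered the comparison by which the gene set was chosen, so the rises are not independent of that choice.

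**Figure D1:**
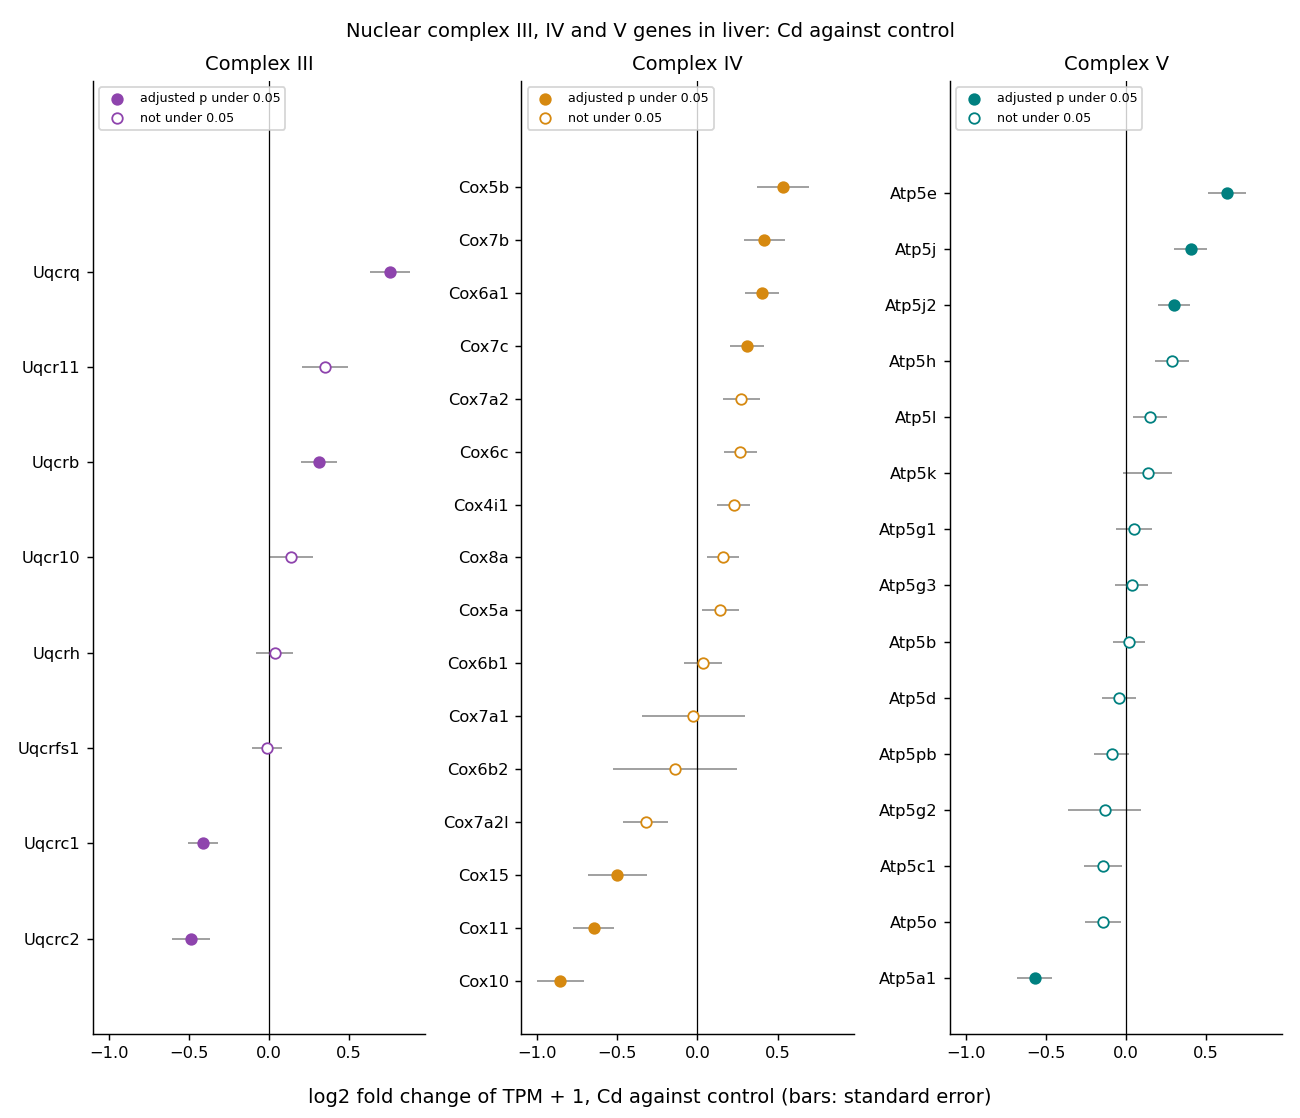
Log2 fold change of TPM + 1 in Cd against control (horizontal axis) for the 39 tested genes, by complex, with bars for the standard error and filled points for an adjusted p under 0.05. Genes that rose (up to 0.76 for Uqcrq) and genes that fell (down to -0.86 for Cox10) stand in all 3 complexes.

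In complex III, 2 accessory subunits rose and 2 core subunits fell. Gene positions below are those of GENCODE M21 (GRCm38), gene start to gene end. Uqcrq, a small accessory subunit encoded at chr11:53427922-53430831, was at 319, 251, 262 and 268 TPM in control mice 27, 28, 29 and 30 and at 511, 543, 449.8 and 367 TPM in Cd mice 1, 2, 5 and 6. Every Cd mouse lay above every control mouse, by 1.70-fold on the means (log2 change 0.76, standard error 0.13, adjusted p = 0.000718). Cd+Se mice 13 to 16 were at 296, 288, 319 and 314 TPM and Se mice 39, 40, 41 and 44 at 274, 345, 279 and 289 TPM, both overlapping the controls. Uqcrb, an accessory subunit on the matrix side, was at 529, 395, 438 and 360.2 TPM in control and 574, 558, 492 and 499 TPM in Cd mice. The groups overlapped through control mouse 27 only, and Uqcrb rose (log2 change 0.31, standard error 0.11, adjusted p = 0.0421). Uqcrb was over the threshold in 10 of 17 alternatives, among them quantile normalization (adjusted p = 0.064) and the length and GC correction (log2 change 0.0033, adjusted p = 0.987). Its levels were 391, 399, 381 and 384 TPM in Cd+Se and 454, 451, 431 and 416 TPM in Se mice. Uqcr11, with the shortest coding sequence of the complex (171 bases), was at 452, 304, 337 and 319.7 TPM in control, 505, 517, 407 and 366 TPM in Cd, 307, 354, 323 and 348 TPM in Cd+Se and 338, 426, 331 and 383 TPM in Se mice. Its difference in Cd mice did not pass the threshold (log2 change 0.35, standard error 0.14, adjusted p = 0.0751). Uqcrh (log2 change 0.035, standard error 0.12, adjusted p = 0.848), the hinge protein of cytochrome c1, did not pass it either. The log2 change of Uqcr10, another accessory subunit, was 0.14 (adjusted p = 0.447).

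Uqcrc1 and Uqcrc2 are the large core subunits that face the matrix. Uqcrc1, at chr9:108936633-108949623, was at 130.2, 118, 117 and 114 TPM in control and 99.0, 93.6, 77.0 and 91.2 TPM in Cd mice. All Cd mice lay below all controls, at 0.75 times the control mean (log2 change -0.41, standard error 0.092, adjusted p = 0.00427). In Cd+Se mice it was at 95.4, 95.9, 91.6 and 103 TPM, again below every control. Se mice, at 112.5, 110.4, 109.7 and 113.5 TPM, also lay below every control, though the lowest control was at 113.61 TPM. The difference between Se and control mice did not pass the test (log2 change -0.10). Uqcrc2 was at 149.8, 132, 138 and 123 TPM in control and 109, 107, 73.9 and 100.1 TPM in Cd mice, with no overlap (log2 change -0.49, standard error 0.12, adjusted p = 0.0066). Cd mouse 5 was the lowest for both genes, and Uqcrc1 did not pass when libraries were centred on their median (adjusted p = 0.0614). Levels of Uqcrc2 were 98.2, 119.6, 109.6 and 109.7 TPM in Cd+Se and 130.2, 137, 132 and 128 TPM in Se mice. Uqcrfs1, the Rieske iron-sulphur protein that takes electrons from ubiquinol, was at 166, 139, 152 and 151 TPM in control, 167, 158, 137 and 142 TPM in Cd, 123, 131, 137 and 141 TPM in Cd+Se and 142, 159, 143 and 154 TPM in Se mice. Control and Cd mice overlapped widely (log2 change -0.012, standard error 0.095, adjusted p = 0.933).

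All 10 complex IV subunits of the set in their liver forms had a positive log2 change in Cd mice, and 4 of them passed the test (Cox5b, Cox6a1, Cox7b and Cox7c). The median of the 10 was 0.27. After correction for transcript length and GC content 6 of the 10 had a negative log2 change, and none of the 10 passed. Cox4i1, the subunit through which ATP inhibits the enzyme, was at 599, 522, 557 and 517 TPM in control, 715, 678, 584 and 595 TPM in Cd, 509, 513, 579 and 593 TPM in Cd+Se and 511, 541, 529 and 601 TPM in Se mice. Control and Cd mice overlapped, and the difference did not pass (log2 change 0.23, standard error 0.10, adjusted p = 0.103). Cox5a, on the matrix side, was at 248, 196, 206 and 204 TPM in control, 282, 242, 205 and 217 TPM in Cd, 162, 195, 191 and 205 TPM in Cd+Se and 223, 209.8, 199 and 207 TPM in Se mice. It did not pass either (log2 change 0.14, standard error 0.12, adjusted p = 0.369). Cox5b, a zinc-binding matrix subunit encoded at chr1:36691449-36693681, was at 208, 114, 159 and 161 TPM in control and 278, 224, 211 and 205 TPM in Cd mice. The groups met only where control mouse 27 exceeded Cd mouse 6, and Cox5b rose (log2 change 0.53, standard error 0.16, adjusted p = 0.0221). Its levels were 175, 128, 138 and 152 TPM in Cd+Se and 167, 135, 133 and 159.9 TPM in Se mice.

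Cox6a1, the liver form of a membrane subunit encoded at chr5:115345642-115348981, was at 299, 246, 259.7 and 244 TPM in control and 375, 363, 343 and 305 TPM in Cd mice. The groups did not overlap, and Cox6a1 rose 1.32-fold on the means (log2 change 0.40, standard error 0.11, adjusted p = 0.0102). Cd+Se mice were at 216, 259, 246 and 270.4 TPM and Se mice at 259, 254, 249 and 289 TPM. Cox7b, a small membrane subunit, was at 181, 125, 129 and 125 TPM in control and 218, 189, 181 and 157 TPM in Cd mice. Control mouse 27 was the control that overlapped the Cd mice, and Cox7b rose (log2 change 0.42, standard error 0.13, adjusted p = 0.0202). Levels were 130.3, 134, 134 and 129 TPM in Cd+Se and 139.7, 136, 121 and 135 TPM in Se mice. Cox7c, among the most abundant of the 45 genes, was 607 to 797 TPM in control and 767 to 931 TPM in Cd mice and rose by a log2 change of 0.31 (adjusted p = 0.035). Cox6c was 686 to 805 TPM in control and 759 to 996 TPM in Cd mice (log2 change 0.27, adjusted p = 0.0596). Cox5b was over the threshold in 4, Cox7b in 6 and Cox7c in 9 of 17 alternatives. Cox8a, a membrane subunit, was at 299.7, 249.6, 242 and 258 TPM in control, 314, 316, 267 and 275 TPM in Cd, 249.8, 235, 223 and 257 TPM in Cd+Se and 251, 252, 256 and 276 TPM in Se mice. Its log2 change was 0.16 and did not pass (adjusted p = 0.226).

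The 3 assembly factors of complex IV in the set all fell in Cd mice, though Cox15 did not pass under most alternatives. Cox10 makes haem O from haem B and Cox15 turns it into haem A, the haem of the oxidase, while Cox11 delivers copper. Cox10, at chr11:63962627-64079468, was at 4.16, 4.47, 3.99 and 3.58 TPM in control and 1.97, 2.00, 1.13 and 2.17 TPM in Cd mice, at 0.45 times the control mean. No Cd mouse reached the controls (log2 change -0.86, standard error 0.15, adjusted p = 0.000883). In Cd+Se mice it was at 2.15, 2.53, 2.38 and 3.15 TPM and in Se mice at 4.60, 4.07, 2.90 and 3.90 TPM. Cox11 was at 11, 11.2, 13.9 and 11.3 TPM in control and 8.24, 7.26, 5.52 and 8.01 TPM in Cd mice, without overlap (log2 change -0.65, standard error 0.13, adjusted p = 0.00202). Cd+Se mice were at 9.15, 8.35, 10 and 7.24 TPM, likewise below every control, and Se mice at 11.2, 9.37, 9.89 and 9.91 TPM. Cox15 was at 4.92, 6.20, 6.26 and 5.05 TPM in control and 3.60, 5.47, 2.19 and 3.95 TPM in Cd mice. These groups overlapped and the fall was close to the threshold (log2 change -0.50, standard error 0.18, adjusted p = 0.0482). Cox15 was over the threshold in 12 of 16 alternatives. Under quantile normalization or centring on the library median the limma adjusted p of Cox15 was 0.194 or 0.203.

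In complex V, Atp5a1 fell in Cd mice while Atp5e, Atp5j and Atp5j2 rose. After the length and GC correction Atp5a1 still passed, and the log2 changes of Atp5e, Atp5j and Atp5j2 were 0.23, 0.12 and 0.094 and did not pass (adjusted p = 0.15, 0.371 and 0.51). Atp5a1 and Atp5b encode the alpha and beta subunits that alternate in the F1 head, where ATP is made. Atp5a1 was at 391, 322, 342 and 312 TPM in control and 261, 239.7, 187 and 237 TPM in Cd mice, at 0.68 times the control mean. The groups did not overlap (log2 change -0.57, standard error 0.11, adjusted p = 0.00164). Cd+Se mice were at 255, 284, 276 and 267 TPM, below every control, and Se mice at 315, 329.9, 303 and 305 TPM. Atp5b was at 764, 607, 603 and 609 TPM in control, 725, 644, 650.4 and 592 TPM in Cd, 537, 530.5, 578 and 566 TPM in Cd+Se and 641, 608, 598 and 677 TPM in Se mice. Unlike its partner Atp5a1 it did not pass the test in Cd mice (log2 change 0.019, standard error 0.10, adjusted p = 0.902); the difference between these 2 genes was not tested.

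The central stalk turns inside the head and is formed by the gamma, delta and epsilon subunits. Atp5c1 (gamma) was at 313, 254, 263 and 240.0 TPM in control, 274, 272, 202 and 225 TPM in Cd, 236, 241, 219 and 245 TPM in Cd+Se and 251, 301, 256 and 277 TPM in Se mice. It did not pass (log2 change -0.14, standard error 0.12, adjusted p = 0.381), and neither did Atp5d (delta; log2 change -0.044, adjusted p = 0.783). Atp5e (epsilon), at chr2:174461072-174464105, whose coding sequence of 159 bases is the shortest of the 39, was at 452, 337, 362 and 359.6 TPM in control and 644, 657, 537 and 501 TPM in Cd mice. All Cd mice lay above all controls, by 1.55-fold on the means (log2 change 0.63, standard error 0.12, adjusted p = 0.00134). Cd+Se mice were at 398, 362, 356 and 432 TPM and Se mice at 384, 369.7, 364 and 365 TPM.

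The peripheral stalk keeps the head from turning. Its subunit Atp5j (coupling factor 6) was at 285, 209, 237 and 222 TPM in control and 344, 326, 308 and 279 TPM in Cd mice. Only control mouse 27 overlapped the Cd mice, and Atp5j rose (log2 change 0.40, standard error 0.10, adjusted p = 0.00879). Levels were 231, 231, 229 and 244 TPM in Cd+Se and 254, 262, 242 and 247 TPM in Se mice. Atp5h (subunit d) was at 456, 387, 415 and 396 TPM in control, 544, 587, 464 and 434 TPM in Cd, 362, 372, 394 and 413 TPM in Cd+Se and 376, 411, 388 and 431 TPM in Se mice. It narrowly missed the threshold (log2 change 0.29, standard error 0.11, adjusted p = 0.0535). The log2 changes of the other stalk subunits were -0.089 for Atp5pb (adjusted p = 0.562) and -0.14 for Atp5o (adjusted p = 0.34). Of the membrane subunits, Atp5j2 rose from 164 to 205 TPM in control to 198 to 249 TPM in Cd mice (log2 change 0.30, adjusted p = 0.0329). Atp5j2 was over the threshold in 7 of 17 alternatives. Atp5k and Atp5l had log2 changes of 0.13 and 0.15 that did not pass (adjusted p = 0.533 and 0.301).

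**Figure D2:**
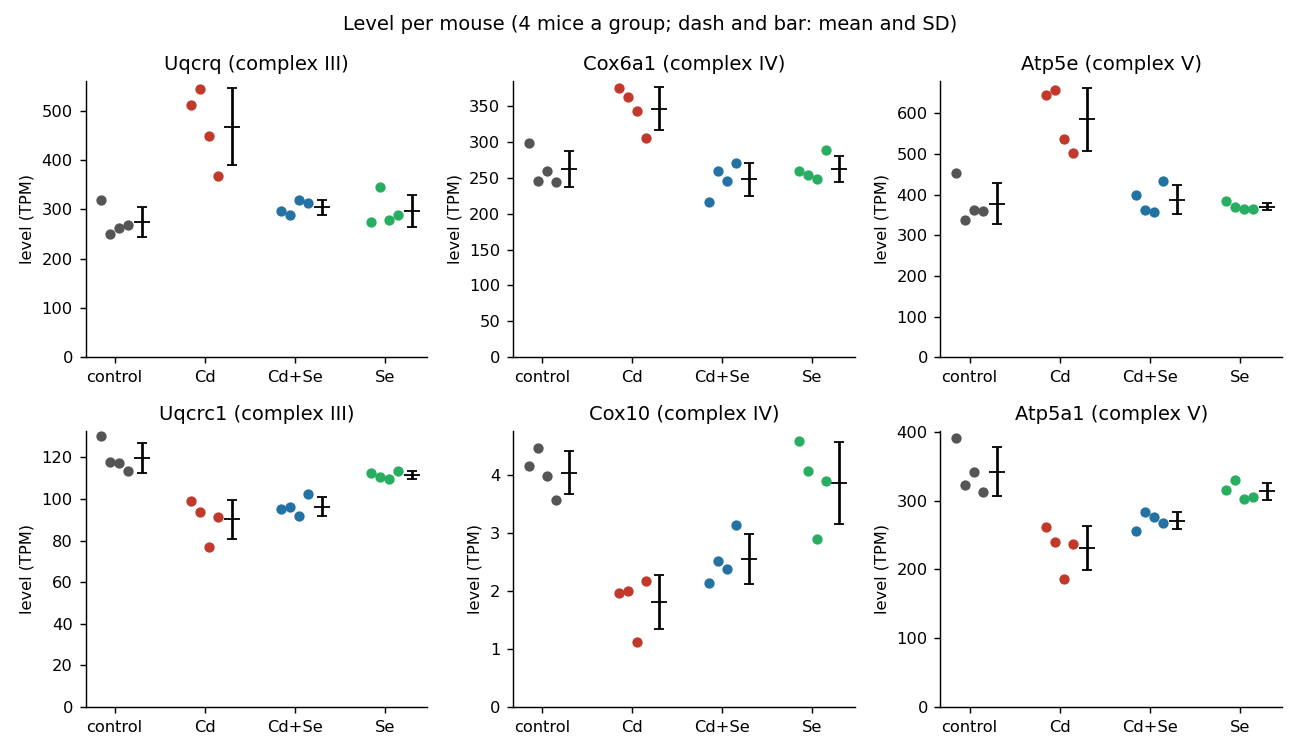
Level (TPM, vertical axis) of 6 genes in each of the 16 mice, with the mean and SD of each group. In the upper row Uqcrq, Cox6a1 and Atp5e of all 4 Cd mice lie above the controls, and in the lower row Uqcrc1, Cox10 and Atp5a1 of all 4 Cd mice lie below them.

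Several subunits have alternative genes, and the liver used mainly one of each. The c ring, through which protons pass, is encoded by Atp5g1, Atp5g2 and Atp5g3 as identical mature proteins. Atp5g3 was at 776, 609, 603 and 616 TPM in control, 735, 690.1, 611 and 625 TPM in Cd, 522, 561, 600.2 and 592 TPM in Cd+Se and 622, 642, 596 and 614 TPM in Se mice. Atp5g1 was at 327, 234, 282 and 229.5 TPM in control, 289.9, 286, 276 and 246 TPM in Cd, 208, 217, 204 and 216 TPM in Cd+Se and 234, 256, 227 and 253 TPM in Se mice. Atp5g2 was at 3.29, 1.38, 2.51 and 1.72 TPM in control, 3.61, 1.76, 1.28 and 1.32 TPM in Cd, 2.77, 2.04, 2.46 and 1.98 TPM in Cd+Se and 2.38, 3.72, 3.11 and 4.04 TPM in Se mice. No c ring gene passed the test in Cd mice (log2 changes 0.048, -0.13 and 0.036, adjusted p = 0.778, 0.683 and 0.82). Atp5g1 made up 29% of their sum in control and 29.2% in Cd mice on average (exact permutation test, p = 0.886, n = 4).

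In complex IV, Cox7a2 was at 279.7, 203, 230.2 and 232 TPM in control, 315, 305, 264 and 256 TPM in Cd, 205, 237, 214 and 253 TPM in Cd+Se and 255, 261, 222 and 251 TPM in Se mice (log2 change 0.27, standard error 0.12, adjusted p = 0.0829). Its heart and muscle form Cox7a1 was at 12.0, 2.85, 10.2 and 7.66 TPM in control, 8.22, 8.10, 5.53 and 7.25 TPM in Cd, 3.56, 5.78, 4.85 and 8.0 TPM in Cd+Se and 7.27, 13.2, 5.68 and 9.38 TPM in Se mice (log2 change -0.025, standard error 0.32, adjusted p = 0.961). Cox7a1 was 3.23% of the sum of both in control and 2.49% in Cd mice, with an exact permutation p of 0.314 (n = 4). The related Cox7a2l is known as a supercomplex factor of complex III and IV. Whether it joins them in this mouse strain was not tested. It was at 116, 113, 114 and 111 TPM in control, 112, 98.5, 68.3 and 88.8 TPM in Cd, 122, 118, 116 and 118 TPM in Cd+Se and 101, 151, 112 and 124 TPM in Se mice. It was the negative exception among the abundant genes of complex IV, and its difference did not pass (log2 change -0.32, standard error 0.14, adjusted p = 0.0886).

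Cox6b1 was at 539, 349, 415 and 398 TPM in control, 449, 439, 423 and 409 TPM in Cd, 348, 347, 343 and 375 TPM in Cd+Se and 452, 383, 389 and 385 TPM in Se mice (log2 change 0.034, standard error 0.12, adjusted p = 0.851). Its testis form Cox6b2 was at 0.48, 0.22, 0.96 and 1.29 TPM in control, 0.56, 0.52, 0.65 and 0.40 TPM in Cd, 0, 0.26, 2.97 and 2.23 TPM in Cd+Se and 0.92, 1.93, 1.42 and 4.12 TPM in Se mice (log2 change -0.14, standard error 0.39, adjusted p = 0.81). Cox4i2, the lung form of Cox4i1, stayed at or below 0.14 TPM. Cox6a2 of heart and muscle was listed at 0 in 13 libraries and reached 0.29 TPM in Se mouse 44. Cox8b, a muscle form, was listed at 0 in 14 libraries, with 0.73 TPM in Cd+Se mouse 16 and 0.61 TPM in Se mouse 39. Cox7b2 and Cox8c, testis forms, were listed at 0 in every library. Cox5b-ps reached 0.27 TPM, in control mouse 29, and reads of Cox5b could be shared with this copy. Of 7 skeletal or heart muscle markers 4 (Ckm, Myh1, Myh6 and Mb) were listed at 0 in every library, and the sum of the 7 did not exceed 0.07 TPM. In 26 exact permutation tests on the genes under the filter and on the isoform shares, no adjusted p (Benjamini-Hochberg) was under 1.0. The smallest p that 4 mice against 4 allow is 0.0286.

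The opposite changes altered the ratio of genes of 1 complex within a library, a measure that needs no scaling between libraries but keeps any dependence on gene length. These pairs were chosen after their values were seen, so the ratios are a description. Atp5e over Atp5a1 was 1.15, 1.05, 1.06 and 1.15 in control and 2.46, 2.74, 2.87 and 2.12 in Cd mice. It was 1.56, 1.28, 1.29 and 1.62 in Cd+Se and 1.22, 1.12, 1.20 and 1.20 in Se mice. The Cd+Se mice lay below all Cd mice and above all control and Se mice. Uqcrq over Uqcrc1 was 2.45, 2.13, 2.23 and 2.36 in control, 5.17, 5.81, 5.84 and 4.03 in Cd, 3.10, 3.0, 3.48 and 3.06 in Cd+Se and 2.43, 3.12, 2.54 and 2.54 in Se mice. Here too the Cd+Se mice were between the Cd and the control mice, and Se mouse 40 overlapped them. Cox5b over Cox10 was 50.1, 25.6, 39.8 and 45.0 in control, 141, 112, 187 and 94.3 in Cd, 81.4, 50.5, 58.0 and 48.2 in Cd+Se and 36.4, 33.2, 45.8 and 41 in Se mice. For Atp5j over Atp5o, both of the peripheral stalk, the ratio was 1.18, 1.12, 1.21 and 1.14 in control and 1.77, 1.52, 1.92 and 1.62 in Cd mice. It was 1.31 to 1.5 in Cd+Se and 1.36 to 1.43 in Se mice. All mice of these groups too lay above all controls, so this ratio was also higher on the diet without Cd.

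**Figure D3:**
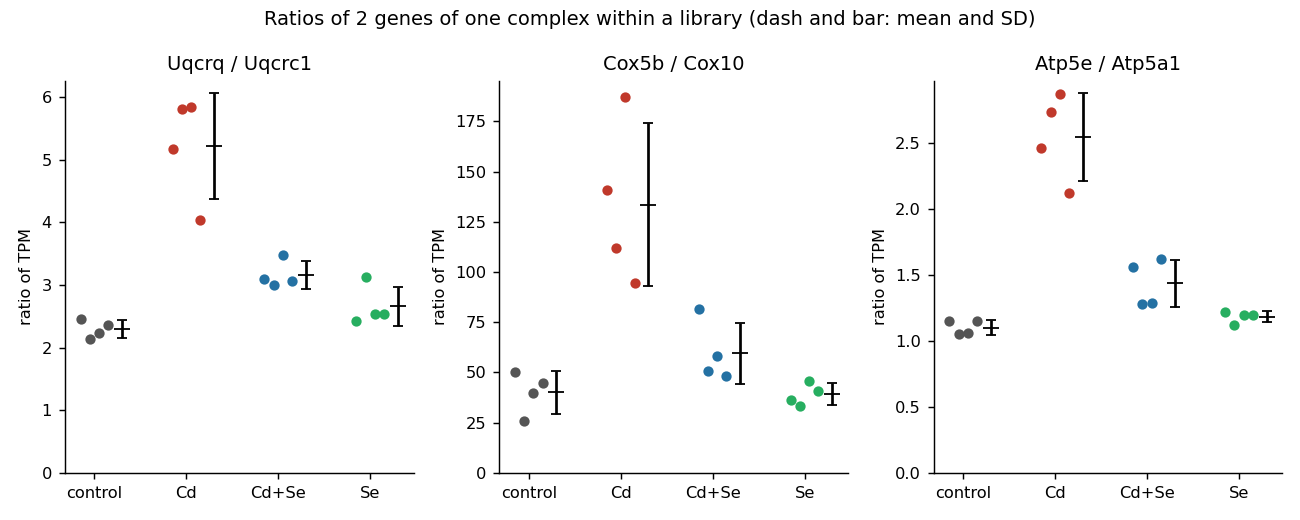
Ratio of the TPM of 2 genes of the same complex (vertical axis) in each of the 16 mice, with the mean and SD of each group. The 4 Cd mice lie above every other mouse in all 3 panels, for example at 2.12 to 2.87 for Atp5e over Atp5a1 against 1.05 to 1.15 in control mice.

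The direction of change in Cd mice went with the length of the coding sequence. The 9 genes that rose had coding lengths of 159 to 390 bases (median 267) and the 6 that fell of 828 to 1662 bases (median 1347), so the classes did not overlap. The median of all 10457 protein-coding genes tested was 1338 bases. Across the 39 genes, Spearman's rho between coding length and the log2 change in Cd against control was -0.67, and across all protein-coding genes it was -0.24. Within complex III it was -0.81 (8 genes), within complex IV -0.50 (16 genes) and within complex V -0.81 (15 genes). Genes share libraries and are not independent replicates, so these are descriptions. Of the genes at least as long as the shortest that fell, Atp5b (1590 bases) and Atp5c1 (897 bases) did not pass the test. After each library was corrected for transcript length and GC content, 8 genes passed the test in Cd against control. Uqcrq alone still rose (0.53, limma adjusted p = 0.00607), and Uqcrc1, Uqcrc2, Cox7a2l, Cox10, Cox11, Atp5a1 and Atp5o fell. Cox7a2l and Atp5o had not passed before the correction, and the other 8 genes that had risen and Cox15 no longer passed after it. After the correction, rho with coding length in Cd against control was -0.42 across the 39 genes and -0.03 across all protein-coding genes. As deposited, rho across the 39 was -0.52 in Cd+Se against control, -0.50 in Cd+Se against Se and -0.34 in Se against control. Across all protein-coding genes it was -0.042, 0.015 and -0.079. Whether the relation to length lies in the RNA or in how the libraries were made was not tested.

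**Figure D4:**
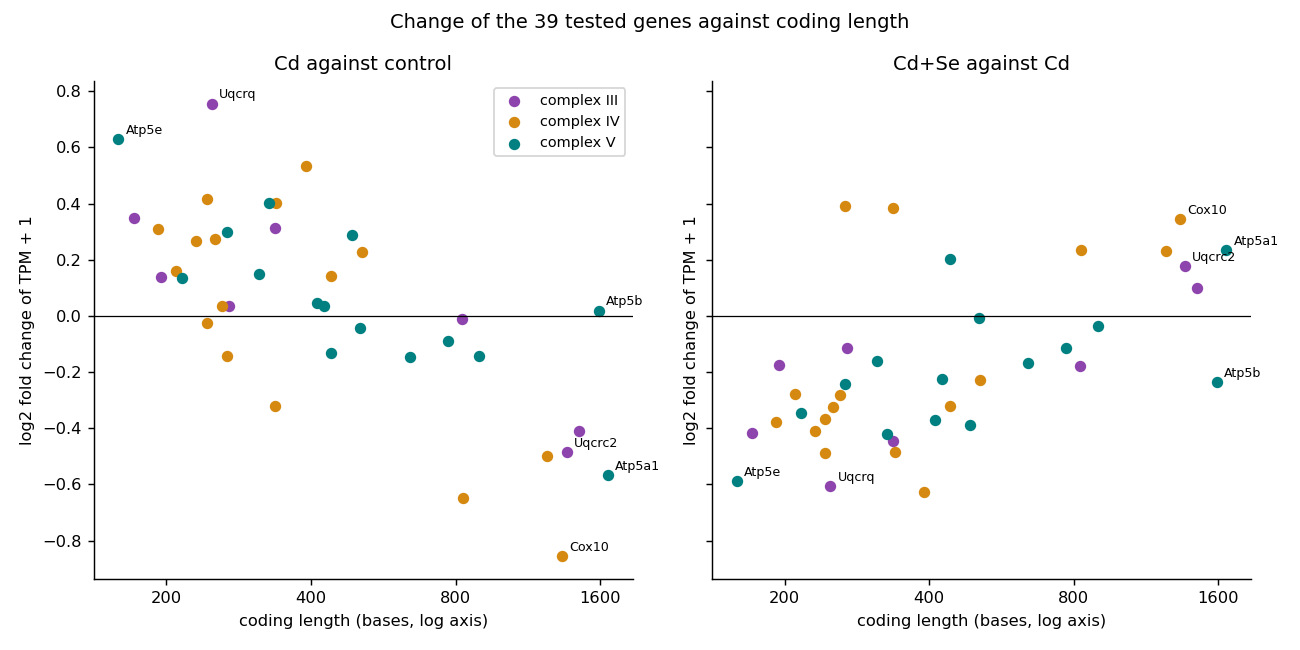
Log2 fold change of TPM + 1 (vertical axis) against coding length in bases (log axis) for the 39 tested genes in Cd against control (left) and in Cd+Se against Cd (right, description only). On the left, the 9 genes that rose are at most 390 bases long, and Atp5b at 1590 bases stands apart from Atp5a1 at 1662 bases.

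The other comparisons had fewer differences. In Se against control, which asked about the diet alone, 0 of 39 genes passed the test (limma), as did 0.0% of all genes. At an unadjusted p under 0.05 the count was 0 of 39, against 3.86% of all genes. The median log2 change of the 39 was -0.028. In Cd+Se against control 0 of 39 passed, against 0.484% of all genes, and 9 of 39 had an unadjusted p under 0.05, against 10.9%. These 9 were Uqcrc1, Uqcrc2, Cox6b1, Cox10, Cox11, Atp5a1, Atp5b, Atp5g1 and Atp5o, and all were lower. Log2 changes were -0.51 for Cox10, -0.41 for Cox11 and -0.33 for Atp5a1 (limma adjusted p = 0.171, 0.217 and 0.25). For 9 of 39 genes all Cd+Se mice lay below all controls, against 4.98% of all genes, and Atp5g3 took the place of Cox6b1 among them. For Uqcrq, Cox6a1 and Atp5e, which rose most clearly in Cd mice, the log2 changes in Cd+Se against control were 0.15, -0.082 and 0.04.

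Cd+Se against Se asked about the injections on the SeMet diet. Here 0 of 39 genes passed (limma), against 0.714% of all genes, and 3 of 39 had an unadjusted p under 0.05 (Uqcrc1, Uqcrc2 and Cox10), against 10.9%. All Cd+Se mice lay below all Se mice for 10 of 39 genes, against 3.68% of all genes. They were Uqcrc1, Uqcrc2, Uqcrfs1, Uqcrb, Cox6b1, Atp5a1, Atp5b, Atp5c1, Atp5g1 and Atp5pb. The Cd+Se mice of these comparisons also entered the comparison by which the set was chosen. The median log2 change of the 39 genes was -0.12 in Cd+Se against control and -0.14 in Cd+Se against Se, beside -0.020 and -0.034 over all genes. The effect of Cd was compared between diets with an interaction term, and no gene of the 39 passed (limma, lowest adjusted p = 0.0603). An unadjusted p under 0.05 was found for 15 of the 39, against 21.3% of all genes, of which 1.04% passed after adjustment. This term contains the difference between Cd+Se and Cd mice by which the genes were chosen, so nothing is read from the count.

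Cd+Se against Cd is the comparison by which the genes were selected, and its values are a description. All Cd+Se mice lay below all Cd mice for 19 genes (3.11% of all genes) and above them for 1, Cox7a2l (16.1% of all genes). The model placed 11 genes past its threshold as lower (2.35% of all genes) and 0 as higher (13.6% of all genes). The genes were chosen by this comparison, so these counts are no test of it and nothing is read from them against the shares of all genes. The log2 differences were -0.63 for Cox5b, -0.61 for Uqcrq and -0.59 for Atp5e. Cox7b (-0.49), Cox6a1 (-0.48), Uqcrb (-0.44), Atp5j (-0.42), Uqcr11 (-0.42), Cox6c (-0.41) and Atp5h (-0.39) followed. The assembly factors differed in the other direction, by 0.34 for Cox10, 0.23 for Cox11 and 0.23 for Cox15. The median over the 39 genes was -0.24, beside 0.17 over all genes.

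Summed over the genes of a complex, the level was less distinct than for single genes. The sum for complex III was 2842, 2178, 2351 and 2163 TPM in control, 3084, 3069, 2440.0 and 2439 TPM in Cd, 2153, 2241, 2247 and 2311 TPM in Cd+Se and 2365, 2579, 2249 and 2373 TPM in Se mice. For complex IV it was 4405, 3434, 3679 and 3617 TPM in control, 5007, 4631, 4153 and 4057 TPM in Cd, 3372, 3424, 3499 and 3775 TPM in Cd+Se and 3762, 3676, 3477 and 3787 TPM in Se mice. For complex V it was 5579, 4380.0, 4585 and 4433 TPM in control, 5684, 5395, 4645 and 4674 TPM in Cd, 4128, 4197, 4311 and 4447 TPM in Cd+Se and 4661, 4767, 4380.0 and 4660.0 TPM in Se mice. Control mouse 27 lay above the other controls in all 3 sums and inside the range of the Cd mice. The Cd mice overlapped the controls through this mouse alone. Cd mice 1 and 2 had the higher sums of their group and Cd mice 5 and 6 the lower. All 45 genes together took up 0.999% to 1.28% of the TPM total in control mice and 1.12% to 1.38% in Cd mice.

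**Figure D5:**
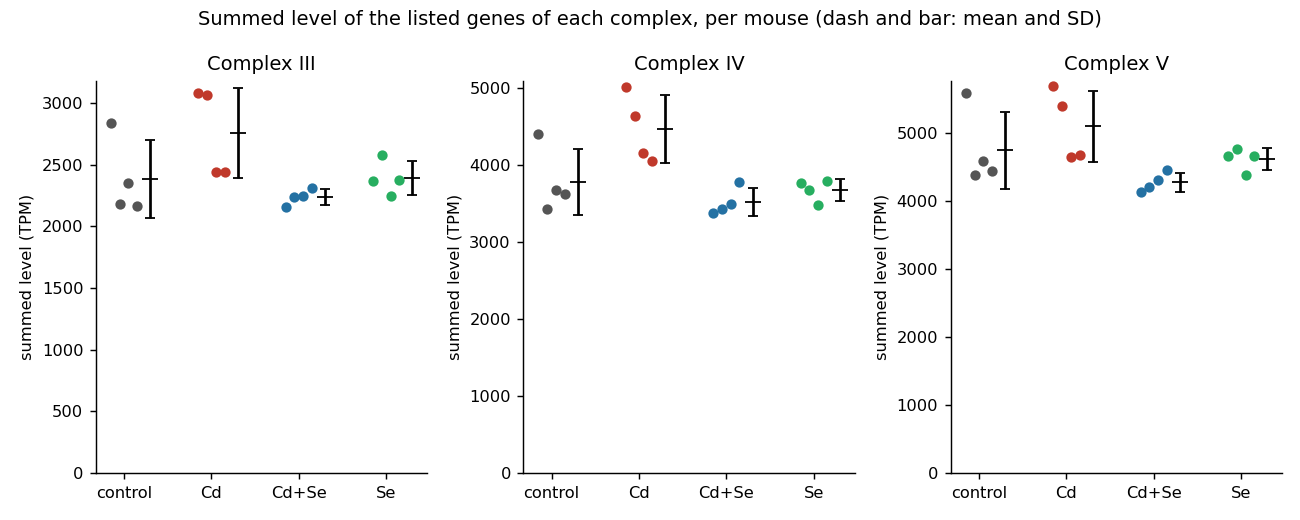
Summed level (TPM, vertical axis) of the genes of complex III, IV and V in each of the 16 mice, with the mean and SD of each group. Control mouse 27, at 5579 TPM for complex V, stands above the other controls at 4380 to 4585 TPM and inside the range of the Cd mice, 4645 to 5684 TPM.

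Facts of the libraries moved with these results. The metallothionein gene Mt1, the check of the Cd labels, was at 50.9 to 221 TPM in control, 3178 to 4899 TPM in Cd, 3621 to 6070 TPM in Cd+Se and 64.3 to 431 TPM in Se mice. The median log2 level of a library was 3.11 to 3.20 in control and 2.68 to 3.12 in Cd mice, lowest in Cd mouse 5. The share of mitochondrially encoded RNA was 16.4% to 17.3% in control and 12.8% to 22.2% in Cd mice, highest in Cd mouse 5. Scaling moved the counts. The median change of all genes in Cd against control was -0.17 as deposited, and centring each library on its median brought the genes that rose from 9 to 21. Without control mouse 28, 29 or 30, or Cd mouse 1, the genes that rose numbered 4 or 5, while 5 or 6 fell without any 1 mouse. The part of these library differences in the results was not tested.

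Markers of liver cell types were counted in the same mice, where 5.82% of all genes tested rose and 24.9% fell in Cd against control. All 7 Kupffer cell and macrophage markers fell in Cd against control (limma, median log2 change -1.31), and their sum was 111 to 135 TPM in control, 38.4 to 58.4 TPM in Cd, 36.6 to 70.9 TPM in Cd+Se and 61.0 to 149 TPM in Se mice. Monocyte and neutrophil markers rose, 5 of 5 tested, with sums of 7.54 to 17.4 TPM in control, 33.9 to 43.8 TPM in Cd, 48.5 to 78.3 TPM in Cd+Se and 6.32 to 10.5 TPM in Se mice. Of the 8 hepatocyte markers 2 fell (Cps1 and Hnf4a), none was at 0, and their sum was 62680 to 85360 TPM in control and 41070 to 68530 TPM in Cd mice. Of 5 sinusoidal endothelial markers 2 fell, of 3 tested stellate cell markers 1 fell, and none of 5 red cell markers passed. Markers of T, B and NK cells and of cholangiocytes were all below the filter. The part of these cells in the results above was not tested.

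The rest of the oxidative phosphorylation pathway was read from lists set apart from the 45 genes. Their counts came from the fit without length and GC correction, where 5.82% of all genes rose and 24.9% fell in Cd against control. Whether they hold after that correction was not tested. Complex I was taken by name, as the pathway genes starting Nduf, and the place of each gene in complex I was not checked. Of these 37 genes 15 rose and 2 fell in Cd against control (median 0.23), led by Ndufab1 (log2 change 0.79, adjusted p = 0.00165), the acyl carrier protein. The 2 that fell were the long core genes Ndufv1 (-0.48, adjusted p = 0.00417) and Ndufs1 (-0.43, adjusted p = 0.00397). Of 4 complex II genes Sdha (-0.75, adjusted p = 0.00145), the flavoprotein, and Sdhd (-0.48, adjusted p = 0.0345) fell. Cycs and Cyc1, cytochrome c and cytochrome c1, had log2 changes of -0.26 and 0.010 that did not pass (adjusted p = 0.126 and 0.959). Of 13 mitochondrially encoded genes 1 rose and none fell. Among 15 tested subunits of the vacuolar ATPase, which share only the annotation, 1 rose and 2 fell.

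Of 12 regulators of respiratory chain genes, 5 fell and none rose in Cd mice (median -0.43). Tfam, which packages and transcribes mitochondrial DNA, went from 38.3 ± 3.77 TPM (SD, n = 4) in control to 18.9 ± 6.24 TPM in Cd mice (log2 change -1.03, limma adjusted p = 0.00151). Gabpa, the ETS factor of the promoter motif above, went from 14.9 ± 1.47 to 8.72 ± 1.54 TPM (log2 change -0.72, limma adjusted p = 0.000946, n = 4). Esrra (-0.76), Tfb1m (-0.65) and Tfb2m (-0.50) fell as well. Nrf1 had a log2 change of -0.48 (adjusted p = 0.0613) and Ppargc1a, a coactivator of this programme, of 0.80 (adjusted p = 0.0529), and neither passed. Assembly genes outside the 45 went both ways. Of 19 tested genes listed for complex IV, 4 rose (Sco2, Cox16, Cmc1 and Pet100) and 4 fell (Sco1, Coa5, Taco1 and Fastkd5). Among those that fell, Taco1, an activator of mt-Co1 translation, had a log2 change of -1.41 (adjusted p = 4.32e-05). The list left out the assembly factor Cox17, at a mean of 100.4 TPM over the 16 libraries. For complex III Uqcc2 rose (0.31, adjusted p = 0.0397) and Uqcc1 fell (-1.25, adjusted p = 0.000219) among 6 genes, and for complex V Atpaf2 fell (-0.51, adjusted p = 0.0154) among 7. Of 92 tested cytosolic ribosomal protein genes 28 rose and 3 fell (median 0.27), and of 78 mitochondrial ones 17 rose and 9 fell (median -0.0099), beside 5.82% and 24.9% of all genes.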

How the data were processed

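Liver RNA of 16 mice was extracted with TRIzol, poly(A)-selected and sequenced on an Illumina NovaSeq, per the labels. The authors deposited 1 table of TPM for 57010 mouse Ensembl genes, with symbol, biotype and KEGG annotation. The submitters' processing notes name fastp, HISAT2 and StringTie, without versions, and GRCh38, a human build, although the identifiers are those of mouse; the build of the alignment is therefore unclear. The study's methods name general tests for all its data and not the tool of its gene comparison, which the sequencing provider ran. Each library summed to the same total, so depth is unknown, and tests for counts were not used. Nothing in the labels says that the mice of a group came from separate cages or batches, and no batch is named.

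The members of the gene set and all lists were chosen with earlier results of these data known. The 11766 genes that averaged 1 TPM or more were fitted as log2(TPM + 1) with limma 3.58.1 in R 4.3.3, all 16 libraries and 4 group means together, with eBayes allowing a trend on intensity. P-values were adjusted over all genes tested (Benjamini-Hochberg, threshold 0.05). A log2 change on this scale understates that of genes with low TPM. Genes under the filter and isoform shares were compared by exact permutation, two-sided, of the 70 ways to place 8 mice in 2 groups of 4 (scipy 1.17.1). Standard errors are those of limma.

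Values of every mouse are given for core and isoform subunits and for the 3 genes of each complex with the largest change in Cd against control and in Cd+Se against Cd, with Cox15 in addition. Transcript and coding lengths are medians over principal transcripts of GENCODE M21 (GRCm38), which covered all 45 genes and 98.3% of the genes tested. On simulated data with 200 of 11766 genes changed, 179 were recovered and 10 unchanged genes were called in the step for Cd against control. The simulated log2 changes were larger than that of any gene of the set in Cd mice, so recovery of smaller changes was not tested. Alternatives were a pseudocount of 0.1, no filter or a mean of at least 5 TPM, quantile normalization, centring on the library median, leaving out mitochondrially encoded genes, a loess correction for transcript length and GC content (span 0.5), no intensity trend, only the groups compared, and leaving out each mouse in turn. The table also listed 9 protein-coding genes with these name starts outside the pathway annotation (such as Atp5md, Atp5mpl and Cox17), which the rule left out.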

Additional observations from a re-analysis of the deposited data

Results flagged for a closer look

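In 13 of 176 groups of 4 values examined, 1 mouse stood apart from the other 3 by Dixon's criterion, where the gap to the nearest mouse is divided by the range of the group. If the groups were independent, chance would give about 1 in 20, here 8.8 groups. The groups share the same 16 libraries and are not independent, so 8.8 is no test of the 13.

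Control mouse 27 was the mouse that stood apart in 7 of them, always above the other controls. It was at 628 TPM for Uqcrh (others 500.4 to 514 TPM, gap 0.889 of the range), 805 TPM for Cox6c (others 686 to 693 TPM, 0.941) and 181 TPM for Cox7b (others 125 to 129 TPM, 0.913). For complex V it was at 764 TPM for Atp5b (others 603 to 609 TPM, 0.963), 776 TPM for Atp5g3 (others 603 to 616 TPM, 0.923), 241 TPM for Atp5o (others 187 to 196 TPM, 0.839) and 570.4 TPM for Atp5l (others 467 to 478 TPM, 0.891). The sum of complex V, which holds the last 4 of these genes, was 5579 TPM in this mouse and 4380 to 4585 TPM in the others, just short of the criterion. Without control mouse 27 the median log2 change of the 39 genes in Cd against control was 0.19 in place of 0.048.

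The other 6 came from other mice. Cox11 was at 13.9 TPM in control mouse 29 (others 11 to 11.3 TPM, 0.884). In Cd+Se mouse 16, Cox6b1 was at 375 TPM (others 343 to 348 TPM, 0.831) and Atp5j at 244 TPM (others 229 to 231 TPM, 0.884). Cox6b1 was at 452 TPM in Se mouse 39 (others 383 to 389 TPM, 0.916), and Cox8a at 276 TPM in Se mouse 44 (others 251 to 256 TPM, 0.83). The ratio of Uqcrq to Uqcrc1 was 3.12 in Se mouse 40 and 2.43 to 2.54 in the other Se mice (0.837).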

How the results depend on the processing

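In Cd against control 15 genes passed the test, 9 higher and 6 lower, and the median log2 change was 0.048. Centring each library on its median gave 25 passing, 21 of them higher, and a median of 0.27, and Uqcrfs1 turned from -0.012 to 0.21 (limma adjusted p = 0.0361). The length and GC correction gave 8 passing, 1 higher, and a median of -0.15. With only the groups compared 5 were higher. Leaving out 1 mouse gave 9 to 18 passing, 4 to 13 higher, 5 to 6 lower and medians of 0.0064 to 0.19. Without control mouse 28, 9 passed and 4 were higher, without control mouse 29 or 30 5 were higher, without Cd mouse 1 4 were higher, and without control mouse 27 the median was 0.19. Uqcrq, Uqcrc2, Cox10, Cox11 and Atp5a1 kept their direction and passed under every alternative that held them. In Cd+Se against control quantile normalization gave 1 gene past the threshold in place of 0. For Cd+Se against Cd, by which the genes were chosen, counts past the threshold are given only to show the effect of the processing, and nothing is read from them. As deposited 11 were below the threshold, all lower (2.35% of all genes were), with a median of -0.24. Quantile normalization gave 18 (17 lower, 1 higher), centring 28 (28 lower, median -0.43), the length and GC correction 3 (2 lower, 1 higher, median -0.058), only the groups compared 0, and leaving out mitochondrially encoded genes 1 higher. Leaving out 1 mouse gave 5 to 12 below it, 5 to 12 lower and 0 to 1 higher, with 5 without Cd+Se mouse 14 and 1 higher without Cd mouse 1, and medians of -0.26 to -0.18. Leaving out 1 mouse gave medians of -0.16 to -0.050 in Cd+Se against control, -0.18 to -0.11 in Cd+Se against Se and -0.061 to 0.053 in Se against control, with 0 genes passing in each. The cause of these shifts was not tested. No paired analysis was possible because the mouse numbers of the groups do not overlap. TPM keep no depth, so the precision of single values cannot be given.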
